A study of Mus musculus with 12 samples.

Results

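The genes described here are 44 large genes that encode chromatin enzymes, remodelling ATPases, Mediator subunits and transcriptional coactivators. They were picked by gene symbol among the 30199 rows of a mouse heart RNA sequencing table, with earlier results of the same table known. The contrast values that guided the choice are not recorded, so counts of members in each comparison are given as a description and support nothing about the set. All 44 members passed the filter on low counts, which kept 18897 genes for testing. The table covers 12 heart libraries of C57BL/6J mice, with 3 libraries per group and 4 groups. The groups were controls (ctrl), the macrophage clearance agent PLX3397 alone (plx3397), sorafenib alone (sorafenib), and sorafenib together with PLX3397 (sorafenib_plx3397). Sorafenib, a kinase inhibitor used against cancer, was given for 28 days. PLX3397 inhibits CSF1R, the receptor on which tissue macrophages depend. The labels give no dose, age or sex, and do not say that each library is a separate animal, so p-values measure only the spread between these libraries.

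Transcription of a packaged genome depends on several kinds of protein. Histone methyltransferases and acetyltransferases mark nucleosomes at active enhancers and promoters, and Polycomb proteins mark silent ones. Remodelling ATPases slide or eject nucleosomes, and Mediator and the nuclear receptor coactivators pass signals from bound factors to RNA polymerase. In the heart, members of these families are known for their roles in development and in the growth response of cardiomyocytes, and in humans inherited loss of several of them causes syndromes with heart malformations.

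Promoter windows from RefSeq on the GRCm38.p6 build, 250 bases before to 50 bases after each start, were matched by symbol for 31 of the 44 members, in 37 windows. The median GC content of these windows was 71%, against 59.7% for the promoters of all tested genes and 62.7% for those of 40 long genes outside chromatin biology. The motif GGGCGG, the core of the GC box, was found on either strand in 86.5% of member windows, 57.2% of windows of tested genes, 35.7% of all windows in the table and 67.6% of windows of the long genes. The motif CCATNTT, read on either strand, was found in 35.1% of member windows, 14.1% of those of tested genes, 16.1% of all windows and 10.8% of those of the long genes. CCAAT was in 27% of member windows and 37.2% of those of tested genes, CCGGAAG in 10.8% and 14.7%, CACGTG in 5.41% and 9.29%, and TATAAA in 5.41% and 8.19%. Of the 37 member windows 21 held GGGCGG without CCATNTT, 11 held both, 2 held CCATNTT alone and 3 held neither. Windows were picked for printing by p in the comparison of both agents with control, given below, among members with 1 window. Smarca2, Med12 and Atrx had the smallest p, and Kmt2a was the first by p whose window holds both motifs. The window of Ezh1 holds neither motif and is not printed. Those of Smarca2 and Med12 hold GGGCGG alone, 2 times and 1 time, that of Kmt2a holds it 5 times with 1 CCATNTT, and that of Atrx is of the uncommon kind with 1 CCATNTT alone. Capitals mark GGGCGG and CCATNTT on either strand. No marked motif overlaps another in these windows, and a match describes letters, not a bound site.
Smarca2, chr19:26604910-26605209, plus strand: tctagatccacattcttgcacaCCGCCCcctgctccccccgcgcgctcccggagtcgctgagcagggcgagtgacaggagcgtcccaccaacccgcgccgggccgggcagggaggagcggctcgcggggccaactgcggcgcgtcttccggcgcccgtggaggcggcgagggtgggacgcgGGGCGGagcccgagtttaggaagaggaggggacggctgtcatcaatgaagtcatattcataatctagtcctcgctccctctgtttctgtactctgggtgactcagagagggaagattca
Med12, chrX:101273841-101274140, plus strand: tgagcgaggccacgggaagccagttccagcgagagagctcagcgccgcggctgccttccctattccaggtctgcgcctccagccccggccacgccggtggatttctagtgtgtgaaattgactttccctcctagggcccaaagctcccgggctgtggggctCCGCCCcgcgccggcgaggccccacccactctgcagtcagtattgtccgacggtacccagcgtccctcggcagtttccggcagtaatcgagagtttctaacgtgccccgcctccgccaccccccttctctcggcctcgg
Kmt2a, chr9:44881240-44881539, minus strand: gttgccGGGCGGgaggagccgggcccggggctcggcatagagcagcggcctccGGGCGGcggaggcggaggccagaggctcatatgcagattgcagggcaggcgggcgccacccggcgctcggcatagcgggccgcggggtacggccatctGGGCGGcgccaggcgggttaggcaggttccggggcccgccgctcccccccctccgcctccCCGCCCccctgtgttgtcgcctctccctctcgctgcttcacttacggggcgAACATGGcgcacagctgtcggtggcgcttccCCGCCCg
Atrx, chrX:105929323-105929622, minus strand: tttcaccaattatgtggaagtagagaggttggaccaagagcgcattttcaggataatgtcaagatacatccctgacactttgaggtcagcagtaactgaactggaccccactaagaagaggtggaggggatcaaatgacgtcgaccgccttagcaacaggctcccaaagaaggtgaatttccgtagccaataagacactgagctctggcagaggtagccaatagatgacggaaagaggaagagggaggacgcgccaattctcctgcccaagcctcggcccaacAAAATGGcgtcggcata

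Library facts that touch the members come first. Total estimated counts ranged from 61626404 to 64537365 per library, and every member had between 244 and 7124 counts in every library. Csf1r, the check of the labels, had 59.1, 48.3 and 53.7 CPM (counts scaled to a common library size) in the controls and 52.4, 38.4 and 41.8 where the label was PLX3397. It had 21.5, 19.7 and 30.5 CPM where the label was sorafenib, against 11.99, 15.8 and 15.5 where it named both agents. The libraries labelled PLX3397 thus overlapped the controls for the gene that marks the cells the agent is meant to remove, and each direction below depends on the labels as given. The controls were also unlike each other for the members. Control replicate 1 was the highest control for 40 of 44 members and control replicate 3 the lowest for 40, where the same held for 40.6% and 37.6% of all genes tested. The order 1 over 2 over 3 among controls was shown by 37 members and by 24.1% of all genes. Exons of 22 members overlap an exon of another gene, for 7 of them on the same strand, and whether the counting used strand is not given in the sources used here, so reads at those exons may be shared.

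The members were expressed at low to moderate levels. On the length-corrected FPKM scale, in which genes can be compared with each other, their median over the 12 libraries was 1.90. Tet2, which oxidises methylcytosine in DNA, was lowest with a mean of 0.622 FPKM, and Chd4, the ATPase of the NuRD complex, was highest with 11.4. In the controls Chd4 had 10.2 ± 1.73 FPKM (SD, n = 3), Smarca4, the BRG1 ATPase of SWI/SNF complexes, 5.74 ± 0.727, the corepressor Ncor1 4.94 ± 0.931 and the Polycomb methyltransferase Ezh1 4.33 ± 0.476. At the other end Tet2 had 0.458 ± 0.139 and the remodeller Chd7 0.555 ± 0.152. The ranges of these last 2 genes overlapped, as did those of Ncor1 and Ezh1, so neighbours in this order do not all differ beyond their spread. Mean levels were under 1 FPKM for 6 members.

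Compared library by library, most members moved in the same direction. Deviation here is a member's log2 CPM minus its mean in the controls. Averaged over the 44 members it was 0.26, -0.02 and -0.24 in the controls and 0.11, 0.35 and 0.43 with PLX3397. With sorafenib it was 0.43, 0.44 and 0.35, and the combined group had 0.48, 0.41 and 0.44. The 6 libraries that received sorafenib thus lay close together, above every control. PLX3397 replicate 1 lay below control replicate 1, while PLX3397 replicates 2 and 3 were close to the sorafenib libraries. Counted gene by gene, 35, 38 and 35 members exceeded the highest control in the sorafenib libraries, where 31.2%, 29.3% and 27.9% of all genes did. With both agents 38, 35 and 37 members did so, against 32.2%, 31.3% and 30.7% of all genes. With PLX3397 the numbers were 5, 36 and 40, against 22.5%, 28.4% and 29.8%. Replicate 1 was the lowest PLX3397 library for 40 members. Control replicate 3 was the lowest of all 12 libraries for 39 members and for 18.4% of all genes tested.

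**Figure D1:**
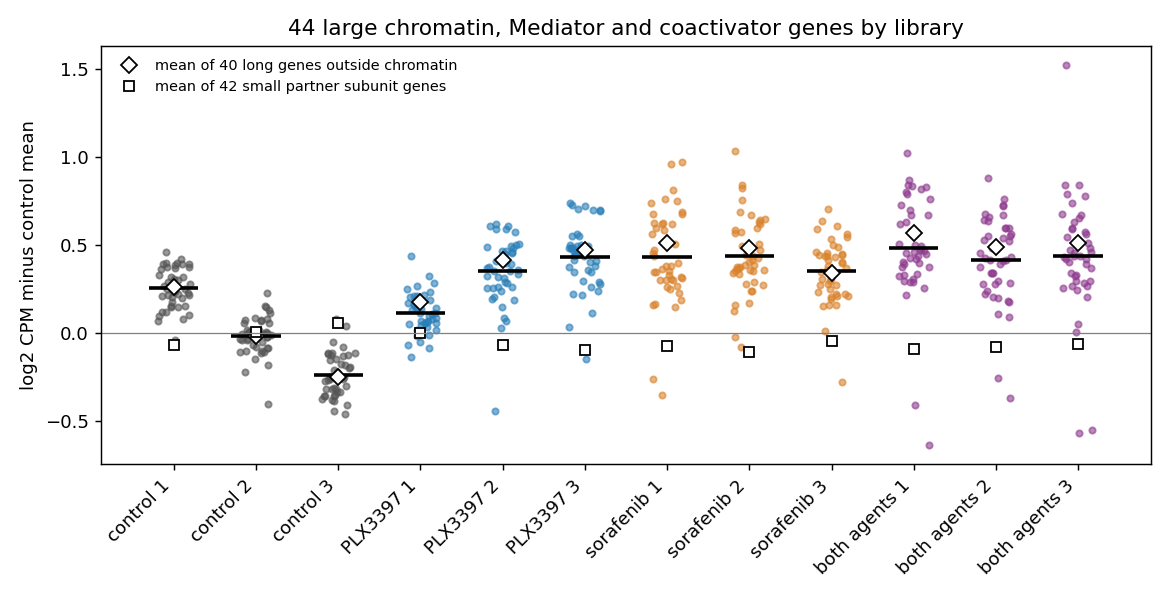
Deviation of each of the 44 members in each library, as log2 CPM minus the control mean, with 1 point per gene and a bar at the mean of the members. Diamonds and squares give the means of 40 long genes outside chromatin biology and of 42 small partner subunit genes. The member means are 0.26, -0.02 and -0.24 in the controls and lie between 0.35 and 0.48 in the 6 libraries that received sorafenib.

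In each of the 9 role groups control replicate 1 had the highest and control replicate 3 the lowest mean among controls. The mean deviation of the 7 histone methyltransferase genes ran from -0.34 in control replicate 3 to 0.70 in replicate 1 of both agents, the widest span among the 9 groups. Across the 5 Mediator genes the controls had 0.24, -0.0039 and -0.24, and the libraries with both agents had 0.57, 0.49 and 0.46. The 5 ATRX, BAZ and BPTF genes had means of 0.28, 0.02 and -0.29 in controls against 0.27, 0.19 and 0.27 with both agents, and every library with both agents lay below control replicate 1. That mean includes Baz1a, the 1 gene of the group that was lower with both agents, at -0.50, and the group's median log2 fold change was 0.34.

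**Figure D2:**
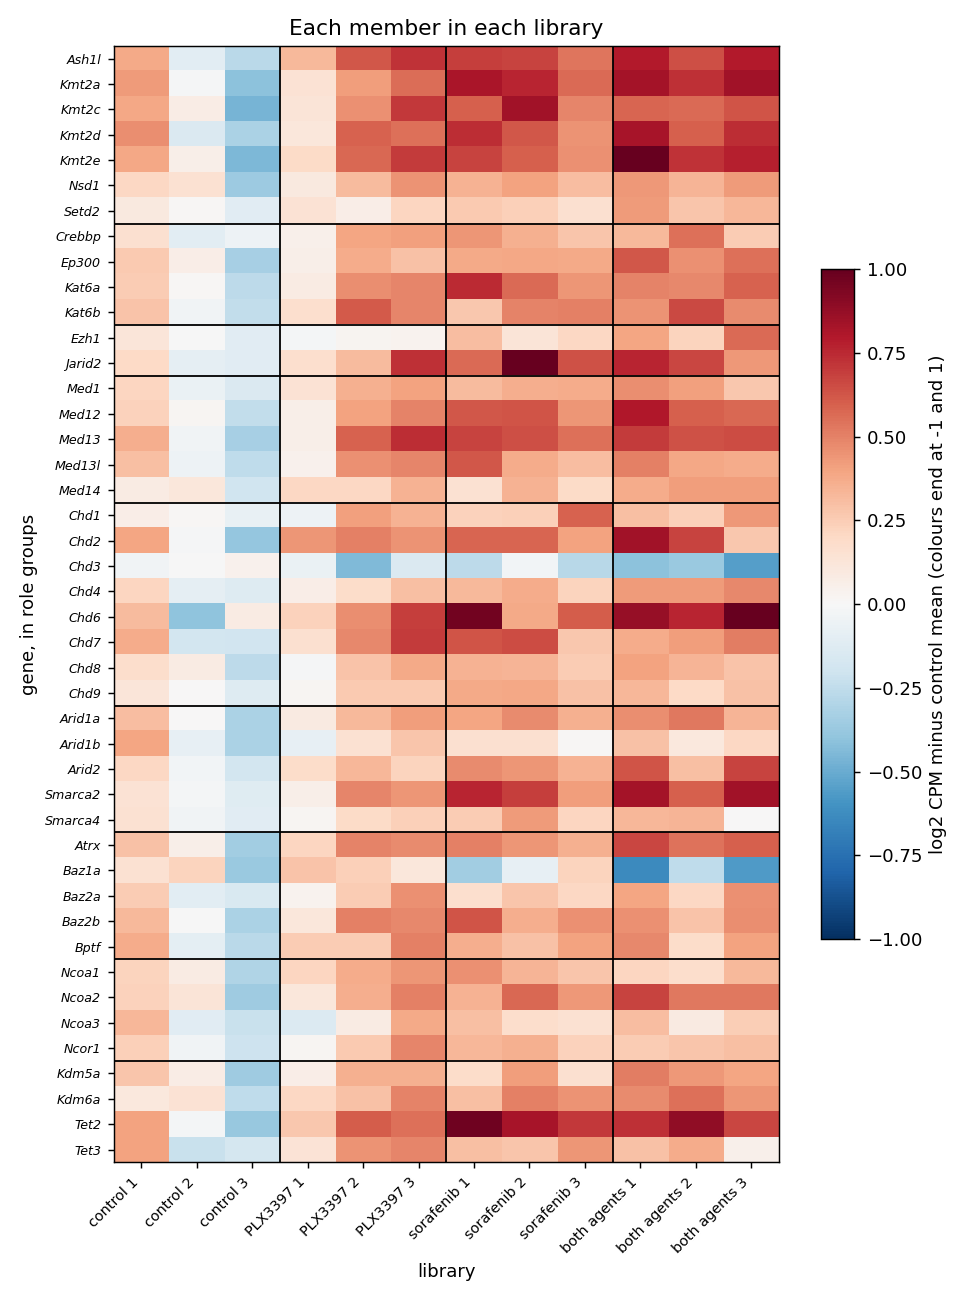
Colour gives the log2 CPM of each member minus its control mean in each of the 12 libraries, with genes grouped by role and colours ending at -1 and 1. Most members are blue in control replicate 3 and red in the 6 libraries with sorafenib, and Chd3 and Baz1a are blue with both agents.

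Sorafenib was compared with control to ask what the drug changed in the heart. In a quasi-likelihood test of edgeR on all genes, a gene was called when its p, adjusted by Benjamini-Hochberg over the 18897 genes, was under 0.05. By that rule 7 members rose and 0 fell, where 2.65% of all genes were called, 1.50% higher and 1.14% lower. Here and below a gene that rose or fell is a called one, and a gene not called can still differ. Before adjustment 37 members and 4105 of all genes had p under 0.05. The members that rose were Smarca2, Tet2, Jarid2, Ash1l, Kat6a, Med12 and Kmt2a. Of the 44 members 42 had a fold change above 0, with a median log2 fold change of 0.38 against -0.02 for all genes tested. Libraries of both groups did not overlap for 32 members, all higher with sorafenib, against 12.8% of all genes higher and 13.7% lower. Each of these 7 calls ended when any of 4 libraries was left out: 0 members were called without control replicate 2, control replicate 3, sorafenib replicate 1 or sorafenib replicate 2, where the shares of all genes called were 0.519%, 0.231%, 0.139% and 0.938%. Without control replicate 1 there were 29, with 7.31% of all genes called. Leaving out a library of another group, which changes the filter, the scaling and the shared estimate of spread, also moved the count. It was 18 without PLX3397 replicate 1 and 3 without PLX3397 replicate 2, against 6.59% and 1.69% of all genes. It was 3, 3 and 4 without replicates 1, 2 and 3 of both agents, against 1.82%, 1.60% and 2.22%. By limma on FPKM 0 members were called, where 4.52% of all genes were, and with total count scaling 3, where 3.07% were.

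Both agents together were compared with control to give the joint effect. Here 25 members rose and 1, Chd3, fell, where 16.1% of all genes were called, 7.97% higher and 8.14% lower. The median log2 fold change of the members was 0.42, against -0.02 for all genes. For 33 members every library with both agents lay above every control, and for Chd3 every one lay below. The corresponding shares of all genes were 16.6% higher and 19.0% lower. The count of members called was 39 without control replicate 1, 17 without control replicate 2 and 10 without control replicate 3, against 16.8%, 8.63% and 6.48% of all genes. Leaving out replicate 1 of the combined group gave 13 and leaving out its replicate 2 gave 16, against 6.61% and 9.15%. Limma on FPKM called 7 members and 17.9% of all genes, and total count scaling called 12 and 17.6%. Among the members described in full below, Arid2, Atrx, Chd4, Crebbp, Ep300, Ezh1, Jarid2, Kat6a, Ncoa2 and Tet2 lost their call for both agents with limma, at adjusted p-values of 0.0579 to 0.292. Of these Chd4, Crebbp, Ep300, Ezh1, Jarid2 and Kat6a also lost it with total count scaling, at 0.0523 to 0.2. Both comparisons share the control libraries with each other and with that of PLX3397, so they are not independent of one another.

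**Figure D3:**
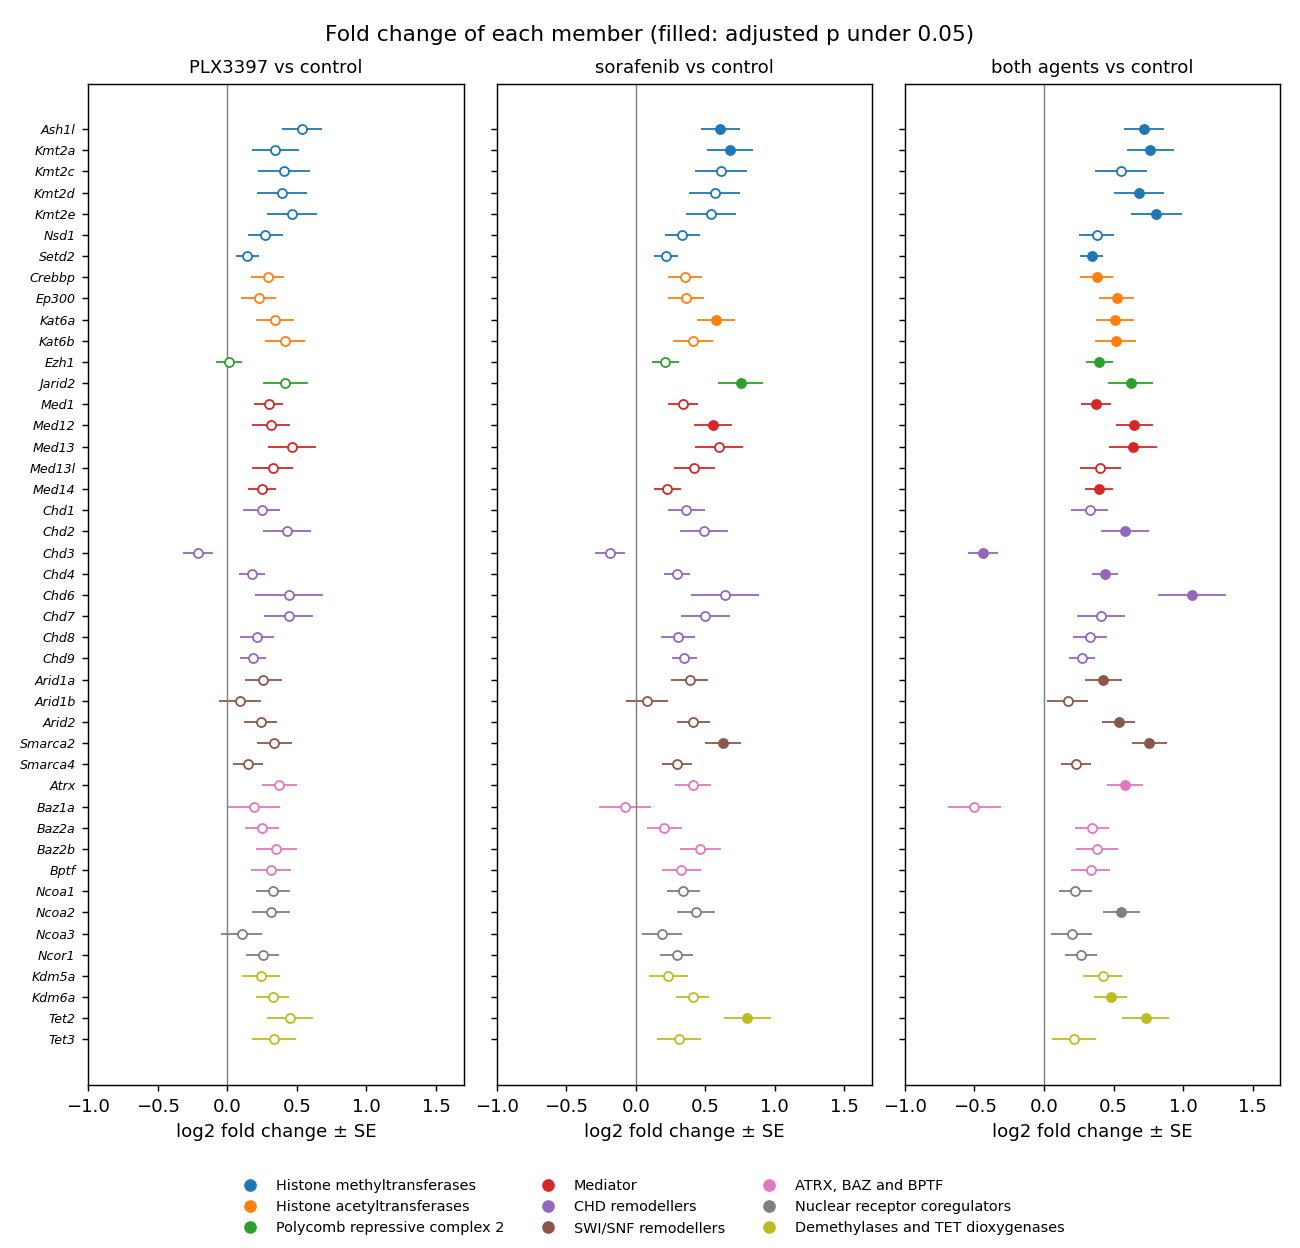
Log2 fold change ± SE of each member against control for PLX3397, sorafenib and both agents (n = 3 libraries per group), with filled points at an adjusted p under 0.05 and colour by role. Points lie right of 0 for 43, 42 and 42 of the 44 members, and filled points number 0, 7 and 26.

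Counts of calls in each role group are small and stand beside the shares of all genes. With both agents 7.97% of all genes were called higher and 8.14% lower, and with sorafenib 1.50% and 1.14%. Among the histone methyltransferases 5 of 7 rose with both agents and 2 of 7 with sorafenib alone. Ash1l, at chr3:88950622-89079375 on the mm10 build and a member of the Trithorax group, had 35.0, 25.0 and 22.4 CPM in the controls and 33.7, 41.4 and 44.5 with PLX3397. It had 43.5, 43.0 and 39.1 CPM under sorafenib and 46.7, 42.1 and 46.7 under both agents. Every library given sorafenib lay above every control, while PLX3397 replicate 1 fell inside the control range. The log2 fold change of Ash1l was 0.61 ± 0.14 (SE) with sorafenib, with an adjusted p of 0.0399, and 0.72 ± 0.14 with both agents, with an adjusted p of 0.00576. Kmt2a, the mouse MLL gene, rose by 0.68 with sorafenib and 0.76 with both agents on the log2 scale. With both agents Kmt2e, Kmt2d and Setd2 rose by 0.81, 0.68 and 0.34. Kmt2c (chr5:25271798-25498783), which with Kmt2d marks enhancers, had 29.2, 23.6 and 16.2 CPM in controls, 24.5, 30.7 and 36.5 with PLX3397, 33.8, 40.1 and 31.4 with sorafenib, and 33.4, 33.1 and 34.7 in the combined group. Its treated libraries with sorafenib did not overlap the controls, but control replicates differed widely and the adjusted p with both agents was 0.0615 for a log2 fold change of 0.55 ± 0.19. Nsd1 likewise was not called, at 0.38.

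All 4 histone acetyltransferases were called higher with both agents, and Kat6a alone was called with sorafenib. With sorafenib all 4 had log2 fold changes above 0, from 0.35 to 0.58, and unadjusted p under 0.05. Unadjusted p under 0.05 was found for 4105 of the 18897 genes tested in that comparison. Kat6a (chr8:22859535-22943259), the catalytic subunit of the MOZ complex, had 22.5, 19.0 and 15.8 CPM in controls and 20.0, 26.1 and 26.5 with PLX3397. With sorafenib it had 31.8, 28.1 and 25.7 CPM, and with both agents 26.7, 26.4 and 28.5. The libraries given sorafenib lay above all controls, and PLX3397 replicate 3 overlapped the group with both agents. The log2 fold change was 0.58 ± 0.14 with sorafenib at an adjusted p of 0.0401 and 0.51 ± 0.14 with both agents at 0.0225. That last call was lost without control replicate 2 or 3, at adjusted p-values of 0.0657 and 0.096, and without replicate 1, 2 or 3 of both agents, at 0.0628, 0.0524 and 0.0618. Ep300 (chr15:81585351-81652077), which encodes the coactivator p300, had 26.3, 22.9 and 17.4 CPM in controls, 22.8, 28.3 and 26.7 with PLX3397, 28.5, 28.6 and 28.5 under sorafenib and 33.6, 30.0 and 32.0 under both agents. Each library with both agents exceeded every library of the other groups, and the log2 fold change against control was 0.52 ± 0.13 with an adjusted p of 0.0152. It became 0.0523 without control replicate 3 and 0.0652 without replicate 1 of both agents. Its paralog Crebbp (chr16:4081328-4213997) had 17.2, 14.3 and 14.9 CPM in controls, 16.0, 20.2 and 20.5 with PLX3397, 20.9, 19.7 and 18.6 with sorafenib and, when both were given, 19.3, 22.6 and 18.4. Crebbp did not overlap between controls and either sorafenib group, and its rise of 0.38 with both agents passed narrowly, with an adjusted p of 0.0457. That p lay between 0.0548 and 0.187 when control replicate 2 or 3, replicate 1 or 2 of both agents, replicate 1 or 2 of sorafenib, or PLX3397 replicate 2 was left out. With limma the log2 fold change of Crebbp was 0.17, at an adjusted p of 0.292, and with total count scaling it was 0.24, at 0.2. Kat6b rose by 0.51 with both agents.

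Both Polycomb genes rose with both agents, and Jarid2 also rose with sorafenib alone. Jarid2 (chr13:44729474-44921643), an accessory subunit of Polycomb repressive complex 2 that is required for heart development in mice, had 13.5, 11.0 and 10.8 CPM in controls, 13.2, 14.6 and 19.5 with PLX3397, 17.3, 24.1 and 18.3 with sorafenib, and 19.9, 18.7 and 15.8 in the combined group. Both sorafenib groups lay above the controls. Jarid2 rose by 0.76 ± 0.16 with sorafenib, at an adjusted p of 0.0301, and by 0.62 ± 0.16 with both agents, at 0.0205. Without control replicate 2 or 3, or replicate 1 or 2 of both agents, the last of these became 0.0744, 0.0833, 0.0876 and 0.0624. Ezh1 (chr11:101191115-101226463), the catalytic subunit that prevails in nondividing tissue, had 36.2, 33.1 and 30.7 CPM in controls and 32.9, 33.9 and 34.1 with PLX3397. It had 41.2, 36.3 and 38.5 CPM under sorafenib and 43.7, 38.8 and 49.2 under both agents. PLX3397 libraries lay inside the control range, and both sorafenib groups lay above the controls and the PLX3397 libraries. The log2 fold change of Ezh1 was 0.01 ± 0.10 for PLX3397 against control, with an adjusted p of 0.969, and 0.40 ± 0.10 for both agents against control, with an adjusted p of 0.0139. That last call was lost without control replicate 3, at an adjusted p of 0.064, and without replicate 3 of both agents, at 0.0547.

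Of the 5 Mediator genes 4 were called higher with both agents, and only Med12 was also called with sorafenib alone. With sorafenib all 5 had log2 fold changes above 0 and unadjusted p under 0.05, a threshold that 4105 of the 18897 genes tested passed. Med12 (chrX:101274030-101297465), a subunit of the Mediator kinase module, had 18.6, 16.0 and 13.3 CPM in controls, 16.5, 20.9 and 22.3 with PLX3397, 24.3, 24.5 and 21.5 under sorafenib and 27.5, 24.0 and 23.6 under both agents. Each library given sorafenib exceeded every control, and each library with both agents exceeded every PLX3397 library. Its log2 fold change was 0.55 ± 0.13 with sorafenib at an adjusted p of 0.0446 and 0.65 ± 0.13 with both agents at 0.0069. Med13, which links that module to the core of Mediator, rose by 0.64 with both agents. Med14, the backbone subunit, rose by 0.40, and Med1, which binds nuclear receptors, by 0.38. Med13l (chr5:118560679-118765438), the paralog of Med13, had 16.5, 13.0 and 11.3 CPM in controls, 13.8, 18.5 and 18.8 with PLX3397, 20.6, 17.4 and 16.6 with sorafenib and, when both were given, 19.0, 17.6 and 17.4. The sorafenib groups were above the controls by as little as the gap between 16.5 and 16.6 CPM, and the log2 fold change of 0.41 ± 0.15 with both agents had an adjusted p of 0.0778. Med12, Med14, Atrx and Kdm6a are on the X chromosome. The Y-linked gene Ddx3y had 43.0 to 66.9 CPM and Xist at most 1.64 CPM over the 12 libraries.

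The 8 CHD remodellers were the most mixed group, with 3 higher and 1 lower with both agents and 0 called with sorafenib alone. As 8.14% of all genes were called lower with both agents, 1 lower call says little about the group. Chd4 (chr6:125095981-125130591) had 98.1, 79.4 and 76.9 CPM in controls, 88.5, 96.0 and 104 with PLX3397, 105, 109 and 98.5 with sorafenib, and 114, 113 and 118 in the combined group. Every library with both agents was above every library of the other groups, and the log2 fold change against control was 0.44 ± 0.09 with an adjusted p of 0.00843. The call was lost with limma, at 0.29 and an adjusted p of 0.0655, and with total count scaling, at 0.30 and 0.0596. Chd3 (chr11:69343273-69364779), which encodes an alternative ATPase of the same NuRD complex, went the other way and is named after its values were seen. It had 26.4, 27.1 and 27.9 CPM in controls, 25.9, 20.0 and 24.5 with PLX3397, 22.6, 26.7 and 22.4 under sorafenib and 20.5, 21.0 and 18.5 under both agents. With both agents it was below every control and every sorafenib library. The log2 fold change of Chd3 was -0.44 ± 0.11 with an adjusted p of 0.0156, which became 0.0537 without control replicate 3 and 0.0538 without replicate 3 of both agents. Chd6 (chr2:160946978-161109022), also named after its values were seen, had 32.1, 19.4 and 27.2 CPM in controls, 30.2, 35.5 and 41.6 with PLX3397, 50.2, 33.4 and 39.2 with sorafenib and, when both were given, 47.1, 43.6 and 74.0. The libraries with both agents lay above all controls, with replicate 3 far above its group. Its log2 fold change of 1.06 ± 0.25 had an adjusted p of 0.0173, and 0.068 without control replicate 3. Chd2 rose by 0.58. Chd7 (chr4:8690406-8867659), mutated in human CHARGE syndrome, had 10.1, 6.85 and 6.80 CPM in controls, 8.69, 10.9 and 12.7 with PLX3397, 12.01, 12.2 and 9.40 with sorafenib, and 10.1, 10.4 and 11.1 in the combined group. It was not called, at 0.41 ± 0.17 and an adjusted p of 0.123, and its sorafenib libraries overlapped the controls. Chd1, Chd8 and Chd9 were not called and had log2 fold changes of 0.33, 0.33 and 0.27 with both agents.

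**Figure D4:**
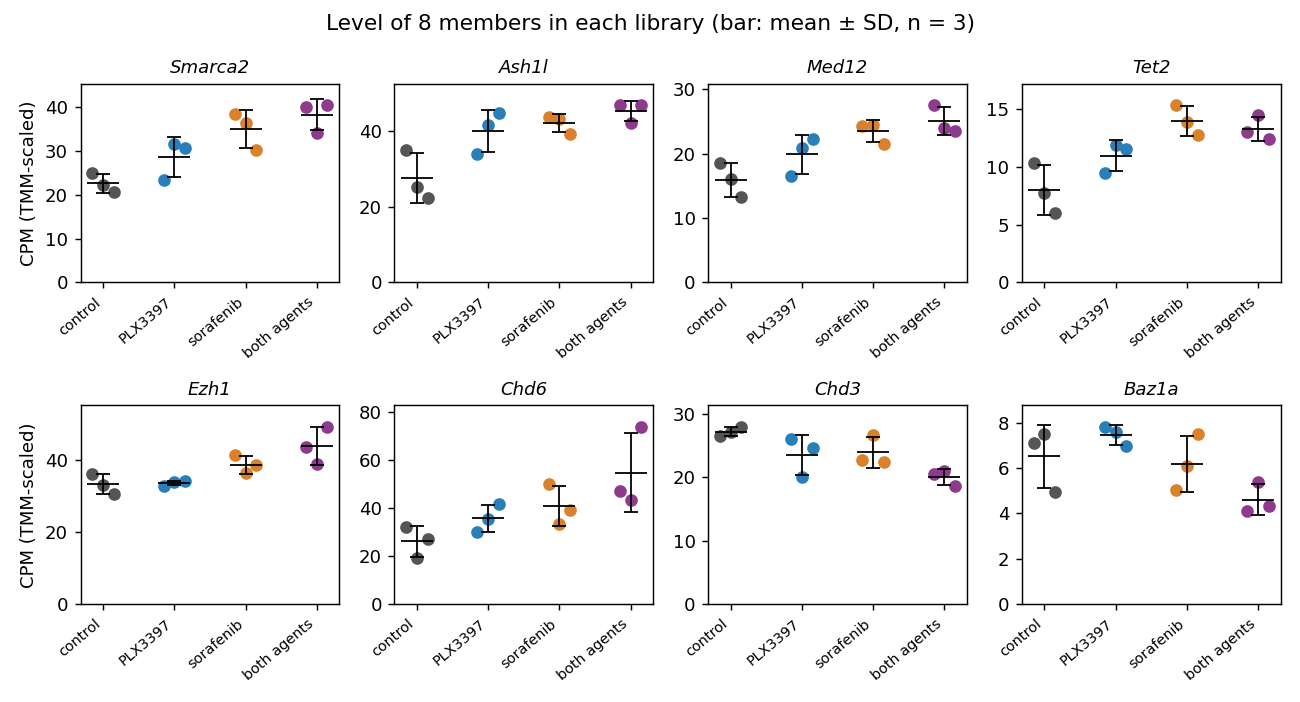
CPM of 8 members in each library, scaled by TMM, with the mean ± SD of each group of 3 libraries. Smarca2, Ash1l, Med12 and Tet2 are above all controls in every library given sorafenib, and Ezh1 is at control level with PLX3397. The mean of Chd3 is lowest with both agents, where its libraries overlap those with PLX3397.

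Of the 5 SWI/SNF genes 3 rose with both agents and 1 with sorafenib. Smarca2 (chr19:26605050-26778322), which encodes the ATPase BRM, had 25.0, 22.2 and 20.7 CPM in controls, 23.5, 31.6 and 30.6 with PLX3397, 38.3, 36.4 and 30.1 under sorafenib and 40.1, 34.2 and 40.4 under both agents. Both sorafenib groups lay above all controls, and the libraries with both agents also lay above all PLX3397 libraries. Its log2 fold change was 0.63 ± 0.13 with sorafenib, at an adjusted p of 0.0246, and 0.76 ± 0.13 with both agents, at 0.00222, the smallest among the members. Smarca2, Ash1l and Med12 kept their call for both agents against control in all 24 alternatives tried, with adjusted p-values of at most 0.017, 0.0298 and 0.039. Arid2 (chr15:96287518-96404992), a subunit of the PBAF form of the complex, had 19.5, 16.5 and 14.9 CPM in controls, 19.2, 21.3 and 19.7 with PLX3397, 23.4, 22.9 and 21.5 with sorafenib and, when both were given, 26.1, 20.7 and 26.9. The controls overlapped neither sorafenib group, and the log2 fold change with both agents was 0.54 ± 0.12 with an adjusted p of 0.00968. Arid1a, a subunit of the BAF form, rose by 0.43. Its paralog Arid1b (chr17:4994332-5347656) had 30.6, 22.0 and 18.7 CPM in controls, 21.9, 25.8 and 28.1 with PLX3397, 26.0, 25.9 and 23.5 with sorafenib, and 28.4, 25.0 and 26.7 in the combined group. All treated libraries of Arid1b lay inside the control range, with a log2 fold change of 0.17 ± 0.15 with both agents. Smarca4, the alternative ATPase to Smarca2, was not called, at 0.23 ± 0.11 and an adjusted p of 0.162.

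In the group of ATRX, BAZ and BPTF genes Atrx rose with both agents and the other members were not called. Atrx (chrX:105797615-105929403), which places a histone variant in heterochromatin, had 49.1, 41.8 and 31.4 CPM in controls, 46.6, 56.5 and 55.6 with PLX3397, 57.0, 54.4 and 51.3 under sorafenib and 63.8, 58.4 and 60.7 under both agents. Every library with both agents was above every library of the other groups. The log2 fold change against control was 0.58 ± 0.13 with an adjusted p of 0.00946. Bptf (chr11:107033081-107132127), the largest subunit of the NURF remodeller, had 28.7, 20.7 and 18.4 CPM in controls, 26.4, 26.5 and 31.4 with PLX3397, 28.6, 27.2 and 29.3 with sorafenib and, when both were given, 31.0, 25.2 and 29.4. Control replicate 1 lay inside the range of both sorafenib groups, and the log2 fold change of 0.34 ± 0.14 with both agents was not called. Baz1a (chr12:54892989-55014348), the ACF1 subunit of ISWI remodellers and named after its values were seen, had 7.12, 7.51 and 4.94 CPM in controls and 7.82, 7.60 and 6.95 with PLX3397. It had 5.03, 6.07 and 7.48 CPM under sorafenib and 4.12, 5.38 and 4.32 under both agents. Baz1a was lower with both agents than in every PLX3397 library, but overlapped the controls. Its log2 fold change was -0.50 ± 0.19 against control, with an adjusted p of 0.0845, and -0.70 ± 0.19 against PLX3397, with an adjusted p of 0.0635. Baz2a and Baz2b were not called, at 0.34 and 0.38 with both agents.

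Nuclear receptor coregulators gave 1 call among 4 genes. Ncoa2 (chr1:13139105-13374083), a steroid receptor coactivator, had 37.7, 35.3 and 25.2 CPM in controls, 34.9, 41.4 and 45.7 with PLX3397, 41.0, 48.0 and 43.6 with sorafenib, and 51.4, 46.4 and 46.4 in the combined group. The libraries with both agents lay above all controls and all PLX3397 libraries, with a log2 fold change of 0.56 ± 0.13 and an adjusted p of 0.0145 against control. That p was 0.0517 without control replicate 3 and 0.0653 without replicate 1 of both agents. Ncoa3 (chr2:165992636-166073242), of the same family, had 28.2, 20.7 and 19.2 CPM in controls, 20.4, 23.7 and 29.1 with PLX3397, 27.6, 25.2 and 24.9 under sorafenib and 27.8, 23.9 and 26.5 under both agents. Its libraries given sorafenib lay inside the control range, and its log2 fold change with both agents was 0.20 ± 0.15. Ncoa1 and the corepressor Ncor1 were not called, at 0.22 and 0.27.

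Among the demethylases and TET dioxygenases 2 of 4 rose with both agents and 1 with sorafenib. Tet2 (chr3:133463679-133545139) had 10.3, 7.69 and 6.00 CPM in controls, 9.43, 11.9 and 11.5 with PLX3397, 15.3, 13.9 and 12.7 with sorafenib and, when both were given, 13.0, 14.4 and 12.4. Both sorafenib groups lay above all controls and all PLX3397 libraries. The log2 fold change of 0.80 ± 0.17 with sorafenib was the largest among the members in that comparison, at an adjusted p of 0.0263, and that with both agents was 0.73 ± 0.17 at 0.0112. Tet3 (chr6:83362373-83459084) had 15.6, 10.1 and 10.5 CPM in controls, 13.0, 16.2 and 16.6 with PLX3397, 14.6, 14.4 and 16.1 with sorafenib, and 14.5, 15.4 and 12.3 in the combined group. All 4 groups of Tet3 overlapped, and its log2 fold change with both agents was 0.22 ± 0.16 with an adjusted p of 0.393. The histone demethylase Kdm6a rose by 0.48 with both agents, and Kdm5a was not called, at 0.42 and an adjusted p of 0.0522.

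PLX3397 alone was compared with control to separate the agent from sorafenib. No member was called, and 0% of all genes were called, with the smallest adjusted p at 0.361. Before adjustment 25 members and 2325 of all genes had p under 0.05, DESeq2 called 1 member and 100 genes, and limma on FPKM called 0 members and 2 genes. The member that DESeq2 called was Ash1l. The median log2 fold change of the members was 0.31 and 43 of 44 were above 0, Chd3 being the exception at -0.21 ± 0.11. Libraries did not overlap for 3 members that were higher and for Chd3, which was lower, against 7.73% and 7.31% of all genes. Without PLX3397 replicate 1 the median was 0.40 and 3 members were called, where 2.97% of all genes were.

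Both agents were compared with sorafenib alone to ask what PLX3397 added. By edgeR 0 members and 0% of all genes were called. Unadjusted p-values under 0.05 were found for 2 members and 1216 genes, and DESeq2 called 0 members and 65 genes. The median log2 fold change of the members was 0.04, with 29 of 44 above 0. The groups did not overlap for 6 members that were higher with both agents and for Chd3, which was lower, where the shares of all genes were 6.39% and 6.21%.

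Sorafenib was also compared on the PLX3397 background. Ezh1 was the 1 member called between both agents and PLX3397, and 3.23% of all genes were, 1.01% higher and 2.23% lower. It rose by 0.38 ± 0.10 at an adjusted p of 0.0409, and that call was lost without any 1 of the 3 PLX3397 libraries, with adjusted p-values of 0.113, 0.105 and 0.0711 without replicates 1, 2 and 3. It was also lost without replicate 1 or 3 of both agents, at 0.129 and 0.153, without control replicate 2, at 0.0647, and without sorafenib replicate 1 or 2, at 0.0501 and 0.0507. The median of the members was 0.15, with 39 above 0. Libraries did not overlap for 15 members that were higher and for Baz1a, which was lower, against 10.8% and 11.5% of all genes.

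The interaction asked whether the sorafenib effect differed with and without PLX3397. It was called for 0 members and for 0% of all genes by edgeR, and the smallest adjusted p among members was 0.822. Unadjusted p-values under 0.05 were found for 5 members and 1099 genes, and DESeq2 called 0 members and 5 genes. The median interaction of the members was -0.26 on the log2 scale, and Ezh1 alone was above 0, at 0.17 ± 0.13. The median was -0.14 to -0.37 when single libraries were left out. It was -0.14 without control replicate 3, -0.34 without PLX3397 replicate 1 and -0.37 without control replicate 1.

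The members were chosen as large genes, so their length is a description of the choice. The length implied by the deposited counts and FPKM had a median of 14374 bases for the members, from 7052 for Smarca4 to 25248 for Chd9, against 4133 for all tested genes. Of the members 32 were above the 90th percentile of length. Over non-members, median fold changes were higher in each longer class from 1000 bases upward, in both comparisons of sorafenib groups with control. For 1137 non-members over 12000 bases the median log2 fold change was 0.20 with sorafenib, 0.18 with PLX3397 and 0.24 with both agents, and 27.5% of them were called higher with both agents. For the 722 of these within the members' range of level the medians were 0.24, 0.21 and 0.29, and 34.8% were called higher. The 25 members over 12000 bases had medians of 0.41, 0.34 and 0.43. Non-members of 1000 to 2000 bases lay at -0.13, -0.14 and -0.15. The same length order was seen between controls, where all genes over 12000 bases had median deviations of 0.17, -0.02 and -0.14 and those of 1000 to 2000 bases had -0.09, 0.03 and 0.09.

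**Figure D5:**
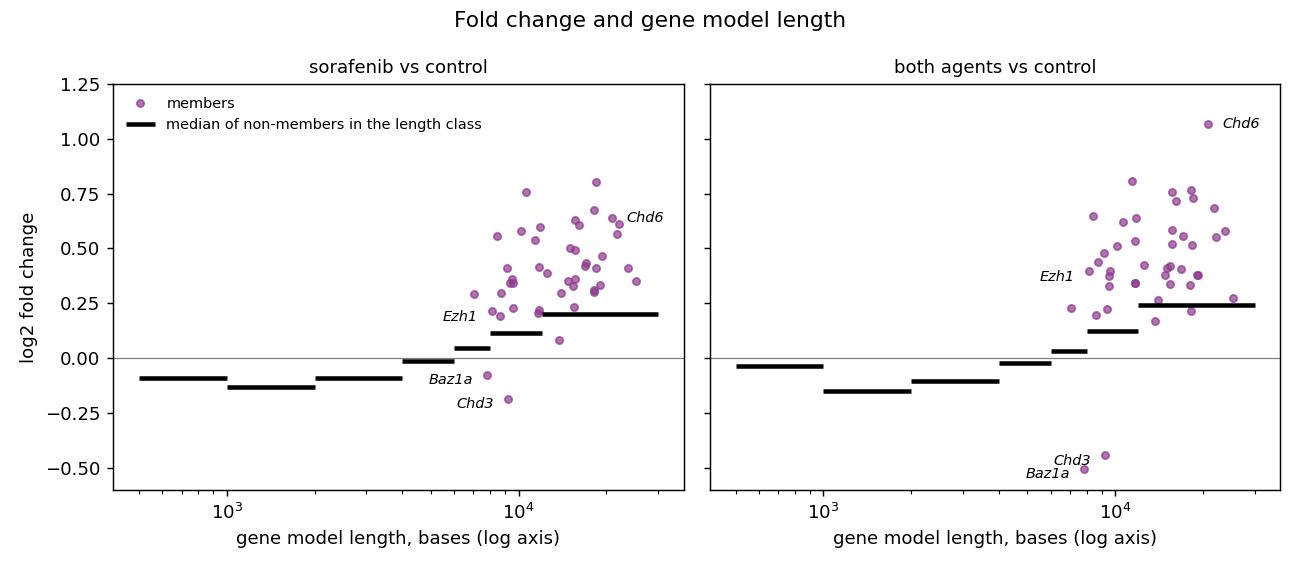
Log2 fold change of the 44 members against gene model length in bases (log axis), with bars at the median of non-members in each length class, for sorafenib and for both agents against control. Non-members over 12000 bases have medians of 0.20 and 0.24, and most members lie above the bar of their class. Chd3, Baz1a and Arid1b lie below it in both panels, and Tet3 lies below it with both agents.

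When a smooth trend of log ratio on length was removed from every library, the members' medians fell to 0.22 with sorafenib, 0.15 with PLX3397 and 0.26 with both agents. The number called stayed at 7 with sorafenib, the same 7 genes, where 2.46% of all genes were called. With both agents it went from 26 to 20, all of them among the 26, where 15.2% of all genes were called. The 6 that lost their call were Arid1a, Chd2, Chd6, Crebbp, Kat6b and Setd2. Their log2 fold changes with the trend removed were 0.27, 0.37, 0.77, 0.17, 0.26 and 0.19, at adjusted p-values of 0.0678, 0.0651, 0.0537, 0.3, 0.149 and 0.0874. Smarca2 then had log2 fold changes of 0.41 ± 0.10 with sorafenib and 0.53 ± 0.10 with both agents, at adjusted p-values of 0.039 and 0.00328. Chd3 had -0.55 ± 0.11 with both agents, at an adjusted p of 0.00634. Whether length, RNA integrity or library preparation has a part in the members' differences was not tested, and the labels give no RNA quality values.

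Other gene lists were read beside the members, as counts over the tests on all genes for both agents against control. In that comparison 7.97% of all genes were called higher and 8.14% lower. Among 40 long genes outside chromatin biology 29 rose and 0 fell, with a median of 0.52. Dystrophin, Dmd, rose by 0.99 ± 0.13 and the kinetochore gene Cenpf by 1.07 ± 0.17, at adjusted p-values of 0.000642 and 0.00178. By library these long genes averaged 0.26, -0.02 and -0.25 in controls, 0.18, 0.42 and 0.47 with PLX3397, 0.51, 0.48 and 0.34 under sorafenib and 0.57, 0.49 and 0.51 under both agents. As for the members, every library given sorafenib was above every control and PLX3397 replicate 1 was below control replicate 1. Among 52 other chromatin and Mediator genes 11 rose and 0 fell, with a median of 0.25, including the histone deacetylases Hdac4 at 0.44 ± 0.10 and Hdac9 at 0.47 ± 0.11. Among 42 genes of small subunits that sit in the same complexes 0 rose and 3 fell, the latter near the share of all genes, with a median of -0.06. Of these Mbd3, a NuRD subunit, fell by 0.36 on the log2 scale and Med29, a Mediator subunit, fell by 0.43. Of 20 genes of SR proteins and CLK kinases, which act in splicing, 10 rose and 0 fell, led by Clk4 at 0.69 ± 0.09 and Srsf11 at 0.47 ± 0.07. Of 8 noncoding RNAs retained in the nucleus 2 rose and 4 fell, with Neat1 at 1.37 ± 0.25 and Meg3 at -1.41 ± 0.34.

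Summed levels of some marker lists differed between the same groups. In bulk heart RNA, fewer cells of a type and less RNA per cell cannot be told apart. The summed level of 10 macrophage markers, 0 of them at 0 in any library, was 531 to 743 CPM in controls, 498 to 596 with PLX3397, 256 to 480 under sorafenib and 182 to 250 under both agents. That of 6 genes of dividing cells was 33.0 to 42.7 CPM in controls, 31.6 to 52.1 with PLX3397, 14.4 to 18.6 under sorafenib and 8.91 to 13.6 under both agents. The summed level of 13 circadian clock genes, which mark no cell type, was 340 to 378 CPM in controls, 371 to 422 with PLX3397, 546 to 606 under sorafenib and 668 to 821 under both agents. Single clock genes went both ways. Their log2 fold changes with both agents against control ran from -2.54 to 2.70, with 10 above 0 and 3 below. The 8 cardiomyocyte markers, which define the labelled tissue, summed to 30730 to 33020 CPM in controls, 31750 to 36240 with PLX3397, 34310 to 36680 with sorafenib and 35510 to 42490 with both agents. Some other lists overlapped between the controls and each sorafenib group. Among them, 7 fibroblast markers had 969 to 1093 CPM in controls, 881 to 905 with PLX3397, 644 to 1225 with sorafenib and 628 to 1053 with both agents. The 4 atrial markers summed to 662.5 to 1515 CPM in controls and 221.5 to 2085 with sorafenib. They had 240.7 to 427.5 CPM with PLX3397 and 218.7 to 372.8 with both agents, below every control. The 6 pericyte and smooth muscle markers had 748.8 to 797.7 CPM in controls and 718.1 to 825.2 with PLX3397. With sorafenib they had 647.2 to 705.5, and with both agents 567.5 to 648.1, below every control in these sums. With TMM scaling their mean deviation over the 6 genes was 0.0029, 0.08 and -0.08 in controls. It was 0.03, -0.22 and -0.18 with sorafenib, overlapping the controls, and -0.35, -0.25 and -0.28 with both agents. The 7 endothelial markers had 553.9 to 660 CPM in controls, 543 to 562.7 with sorafenib and 514.1 to 539.7 with both agents. The part of these differences in the members' values was not tested.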

How the data were processed

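Poly(A) RNA of mouse heart was sequenced in 12 libraries. Per the labels' protocols the second cDNA strand carried dUTP. The deposited table gives an estimated count and an FPKM value per gene and library. Per the file headers the FPKM values are scaled by the authors for length and library size. The submitters' processing notes name mm10, DESeq2 and edgeR. The aligner and counting program are not given in these sources. The deposited counts were whole numbers that piled up at multiples of 4 (12143 values of 4, 5303 of 3, 3364 of 5).

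Groups came from sample titles. The tests on counts used edgeR 4.0.16 in R 4.3.3 (filterByExpr with minimum count 10 and minimum total 15, TMM scaling, robust quasi-likelihood F test, 1 mean per group over all 12 libraries). p-values are two-sided and adjusted by Benjamini-Hochberg over the 18897 genes of a contrast. SEs come from the F statistic. CPM values are scaled by TMM, except the marker sums, which are scaled by total count, and log2 CPM used a prior count of 2. Length was derived from counts and FPKM, and its trend was removed by lowess with a span of 0.3. Alternatives used DESeq2 1.42.0, limma 3.58.1 on log2 of FPKM plus 0.5, other filters and scalings, and leaving out each library. Total counts were 61626404 to 64537365 per library, and the tests cover counting error and the spread between libraries together. Which of these limits precision more was not tested. Correlations of log2 CPM within groups were 0.964 to 0.974.

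The members, role groups and comparison lists were chosen with earlier results of these data known. In each role group the members with the smallest and the largest p in both agents versus control are named with all values, as are up to 6 members with the smallest adjusted p per contrast among those called. From each comparison list the 2 genes with the smallest p in that contrast are named. The fit was tested on simulated counts for both agents against control, with 50 genes changed at each of 4 sizes. It recovered 4% of them at 1.25-fold, 42% at 1.5-fold, 84% at 2-fold and 100% at 4-fold, with 5 false calls. Changes of 1.5-fold or less were thus often missed, and an absent call does not mean an absent change.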

Additional observations from a re-analysis of the deposited data

How the results depend on the processing

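Results were recomputed under 24 alternatives. Of the 20 named members and Chd3, Chd6 and Baz1a, 1517 values kept their direction and their side of the threshold, 118 lost a call, 47 gained one and 22 changed sign. Members called for sorafenib against control numbered 21 with the DESeq2 Wald test and 11 with counts divided by 4, against 9.20% and 5.90% of all genes. They numbered 3 with total count scaling and 2 with only the groups compared, against 3.07% and 2.58%. The replicate block gave 1, and 1 with the length trend also removed, against 1.17% and 1.42%. Limma on FPKM gave 0, against 4.52%. For PLX3397 against control DESeq2 called 1, against 0.529% of all genes. For both agents against PLX3397 the numbers were 3 with DESeq2 and 2 with the length trend removed, against 6.39% and 3.96% of all genes. They were 0 with limma or the replicate block, against 3.28% and 2.29%. With total count scaling and with only the groups compared 1 member was called, against 3.84% and 2.74%. In both of these Ezh1 lost its call and Baz1a was called lower. For both agents against control limma called 7 and total count scaling 12, where 17.9% and 17.6% of all genes were called. Total count scaling moved the median of all genes to -0.13, -0.16 and -0.11 for sorafenib against control, both agents against control and both agents against PLX3397. Relative to that shift the members stayed higher.

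The members' median for sorafenib was 0.22 with the length trend removed, with or without block, 0.19 with limma and 0.25 with total counts. For both agents against control these were 0.26, 0.23 and 0.27. For PLX3397 it was 0.15 and for the interaction -0.11 with the trend removed. Genes called for sorafenib numbered 1739 (DESeq2), 912 (counts divided by 4), 854 (limma), 772 (stricter filter), 269 (length and block) and 221 (block). DESeq2 called 1207 genes for both agents against PLX3397, 100 for PLX3397, 65 for both agents against sorafenib and 5 for the interaction, and for PLX3397 limma called 2 and the fit of only the groups compared 1.

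Leaving out single libraries gave 0 to 29 members called, medians of 0.28 to 0.55 and 27 to 1422 genes for sorafenib, 0 to 3, 0.20 to 0.43 and 0 to 578 for PLX3397, and 10 to 39, 0.33 to 0.57 and 1261 to 3595 for both agents against control. Against PLX3397 both agents gave 0 to 2, 0.04 to 0.25 and 177 to 642, against sorafenib 0 to 0, 0.02 to 0.08 and 0 to 2, and the interaction 0 to 0, -0.37 to -0.14 and 0 to 2. Same-numbered libraries did not deviate together over all genes (18 correlations of -0.10 to 0.06, and 1 of 12 libraries closest to its own number). That shows no strong shared shift, but it cannot tell whether same-numbered libraries were handled together, and the labels do not say. With the replicate block both agents against control kept 24 members and 2465 genes.

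Signs changed for small values that were not called. Arid1b went to -0.089 and -0.085 (length trend removed, without and with block), -0.015 (limma) and -0.045 (total counts) for sorafenib, and ranged from -0.065 to 0.32 without single libraries, lowest without control replicate 3. For PLX3397 it went to -0.045 and -0.039 (length, length and block) and ranged from -0.055, again without control replicate 3, to 0.33. For both agents it went to -0.0085 and -0.0050 (length, length and block). Ezh1 for PLX3397 went to -0.0588 and -0.0590 (length, length and block), -0.014 (limma) and -0.019 (total counts), and ranged from -0.044 without control replicate 3 to 0.088. Ncoa3 for PLX3397 ranged from -0.039 without PLX3397 replicate 3 to 0.30 and was -0.00434 without control replicate 3. Tet3 for both agents went to -0.035 and -0.033 (length, length and block). Baz1a for sorafenib ranged from -0.24 to 0.055, and was above 0 without sorafenib replicate 1 or without either of the first 2 controls, at 0.0065 and 0.038. The cause of these changes was not tested.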
